A study of Mus musculus with 11 samples.

Results

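The genes described here are 36 genes of the amino acid response in mouse stomach: the transcription factor Atf4 with its partners, and the genes that make serine, glycine, asparagine, proline and cysteine, carry amino acids into cells and charge transfer RNAs. They were chosen by gene symbol from a list of members, and each was read on the probe set with 1 gene symbol that had the highest mean over the whole-stomach arrays. Of the 36, 33 were measured in this way among 22180 genes on the arrays. Slc6a9 and Aars were read by probe sets shared with another gene, and these and Pycr1 were not analysed here. The symbol Mars was read under its current name Mars1.

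RNA was taken from adult C57Bl/6 mice, and all treatments were daily intraperitoneal injections. The whole-stomach groups were rapamycin plus tamoxifen (2 arrays), tamoxifen (2 arrays), rapamycin (3 arrays) and vehicle, which was sunflower oil (2 arrays). Tamoxifen, a drug that at high dose kills the acid-secreting parietal cells of the stomach, was injected for 3 days at a daily dose of 5 mg per 20 g of body weight. Rapamycin, an inhibitor of the kinase complex mTORC1, was injected for 10 days at 0.6 mg per 20 g. Another 2 arrays, 1 for each fraction, were of isolated parietal cells and of the other stomach cells left behind. No transgene or deletion is named in the labels. The labels call the whole-stomach arrays biological replicates and do not say whether each is 1 mouse, so the p-values measure the spread between these samples.

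ATF4 is a transcription factor whose messenger RNA is translated more when eIF2 alpha is phosphorylated, which happens when amino acids run short, proteins misfold in the endoplasmic reticulum or haem is lacking. It binds DNA as a dimer with a C/EBP partner and turns on genes for amino acid synthesis, uptake and transfer RNA charging. mTORC1, the growth kinase complex that rapamycin inhibits, also raises ATF4 protein in growing cells, and through it the serine, glycine and one-carbon genes. ATF4 is controlled largely at translation, so the level of its messenger RNA need not follow its protein. Neither ATF4 protein nor mTORC1 activity was measured on these arrays.

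The binding element of an ATF4 and C/EBP dimer reads TGATGNAA, where N is any base. Both strands of the RefSeq promoter windows (250 bases before to 50 bases after each start site, build GRCm38.p6) were searched for these letters. The element was found in the windows of 9 of the 29 members that have one (31.0%), against 1219 of 27025 genes in the table (4.51%). Among the measured members it was in 7 of 26 (26.9%), and among the genes of the surrounding pathways listed further on, in 10 of 95 (10.5%). Members were listed around ATF4 and its targets, so their higher share was partly set by that choice and is not a test. The sites of the 7 measured members are printed first so that the matched letters and their flanks can be read. Sites of Atf3 and Slc7a11 follow, a pair of the 10 pathway genes with a match, and both were called higher with tamoxifen further on. Among the other pathway genes with a match, Herpud1 was called lower. Fgf21, Got1, Iars, Jdp2, Slc7a7, Tars and Yars were not called. The printed pair is thus no sample of the genes with a match. Each line gives the gene's own strand, 5′ to 3′, and the capitals mark the match. Capitals that read TTNCATCA are the element on the opposite strand.
Asns (chr6:7693205-7693252, minus strand): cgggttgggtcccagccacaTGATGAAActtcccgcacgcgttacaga
Chac1 (chr2:119351029-119351076, plus strand): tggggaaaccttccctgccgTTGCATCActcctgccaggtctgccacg
Gars (chr6:55037951-55037998, plus strand): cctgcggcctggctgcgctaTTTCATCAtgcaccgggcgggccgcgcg
Nupr1 (chr7:126625553-126625600, minus strand): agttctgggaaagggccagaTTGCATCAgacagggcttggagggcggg
Slc1a4 (chr11:20332690-20332737, minus strand): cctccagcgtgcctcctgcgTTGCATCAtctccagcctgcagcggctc
Trib3 (chr2:152344019-152344066, minus strand): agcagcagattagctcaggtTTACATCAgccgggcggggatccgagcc
Vldlr (chr19:27216800-27216847, plus strand): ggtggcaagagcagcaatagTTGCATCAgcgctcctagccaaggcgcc
Atf3 (chr1:191183416-191183463, minus strand): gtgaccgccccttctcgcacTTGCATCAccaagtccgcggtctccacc
Slc7a11 (chr3:50443633-50443680, minus strand): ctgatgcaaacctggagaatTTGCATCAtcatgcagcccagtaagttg
The Asns match, in the gene for asparagine synthetase, began 23 bases before the start site, and the Slc1a4 match 4 bases before it. The Slc7a11 window held a further match just upstream, which is the lower-case tgatgcaa near the left end of its line. A match is a description of the letters and shows neither binding nor a cause of any change below.

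Marker genes set some groups and arrays apart. The isolated parietal cells had a mean log2 level of 8.31 over 6 parietal markers, against 5.42 in the other cells, and Atp4a, the catalytic subunit of the acid pump, was 12.58 against 8.03. In whole stomach the parietal marker mean was 8.58 and 8.89 with rapamycin plus tamoxifen, 8.52 and 9.05 with tamoxifen, 10.30 to 10.63 with rapamycin, and 10.26 and 10.21 with vehicle. The mean of 5 chief-cell markers was 9.60 to 10.25 on the 4 tamoxifen-treated arrays, against 11.11 to 11.47 on the 5 others. The mean of 9 cell cycle genes was 8.06 to 8.57 on the tamoxifen-treated arrays, against 6.93 to 7.41 on the others. The mean of 4 mast cell markers was 6.97 and 7.05 with rapamycin plus tamoxifen, 6.96 and 7.72 with tamoxifen, 6.63 to 7.04 with rapamycin, and 8.94 and 9.60 with vehicle. Of 4 macrophage markers Lyz2 and Cd68 rose with tamoxifen averaged over rapamycin, by 1.08 and 0.61 (adjusted p of 0.00955 and 0.0326, limma), and Csf1r and Adgre1 were not called. The mean of 4 adipose markers was 7.31 and 6.48 with rapamycin plus tamoxifen, 6.93 and 5.72 with tamoxifen, 7.22 to 8.15 with rapamycin, and 6.12 and 5.93 with vehicle. In whole stomach, fewer cells of a type and less RNA per cell cannot be told apart. Markers of squamous forestomach, a separate lining that a stomach piece can include, differed within groups. Their mean over 10 genes was 9.32 and 9.49 with rapamycin plus tamoxifen, 9.89 and 5.12 on tamoxifen arrays 1 and 2, 10.06, 8.79 and 5.54 on rapamycin arrays 1, 2 and 3, and 5.19 and 4.92 with vehicle. The squamous marker mean was also put in the model as a covariate, and the counts of calls with it are given with the other settings; the part of the other marker lists in the results was not tested. Results that rest on single arrays are given with and without them.

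Tamoxifen moved 8 of the 33 members, 4 up and 4 down, when its effect was averaged over mice with and without rapamycin. The members that rose were Psat1 and Shmt1 of serine and glycine synthesis, Mthfd1l of mitochondrial folate metabolism and the glutamine carrier Slc38a1. The members that fell were the stress protein gene Nupr1, the transsulfuration genes Cth and Cbs, and Slc3a2, the heavy chain of a family of amino acid exchangers. These 8 are 24.2% of the members, against 5.85% of all 22180 genes (3.24% higher and 2.61% lower) called in this comparison (limma, Benjamini-Hochberg adjusted p under 0.05 over all genes). The median change over the members was 0.04 log2 units and over all genes -0.02, with 17 members on the positive and 16 on the negative side. With rapamycin plus tamoxifen array 1 left out, 4 members were called, and with tamoxifen array 1 and rapamycin arrays 1 and 2 left out together, 2 were (Nupr1 and Cbs). That last setting keeps 6 arrays and a single array each for tamoxifen and rapamycin, which are then assumed to vary like the other groups.

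**Figure D1:**
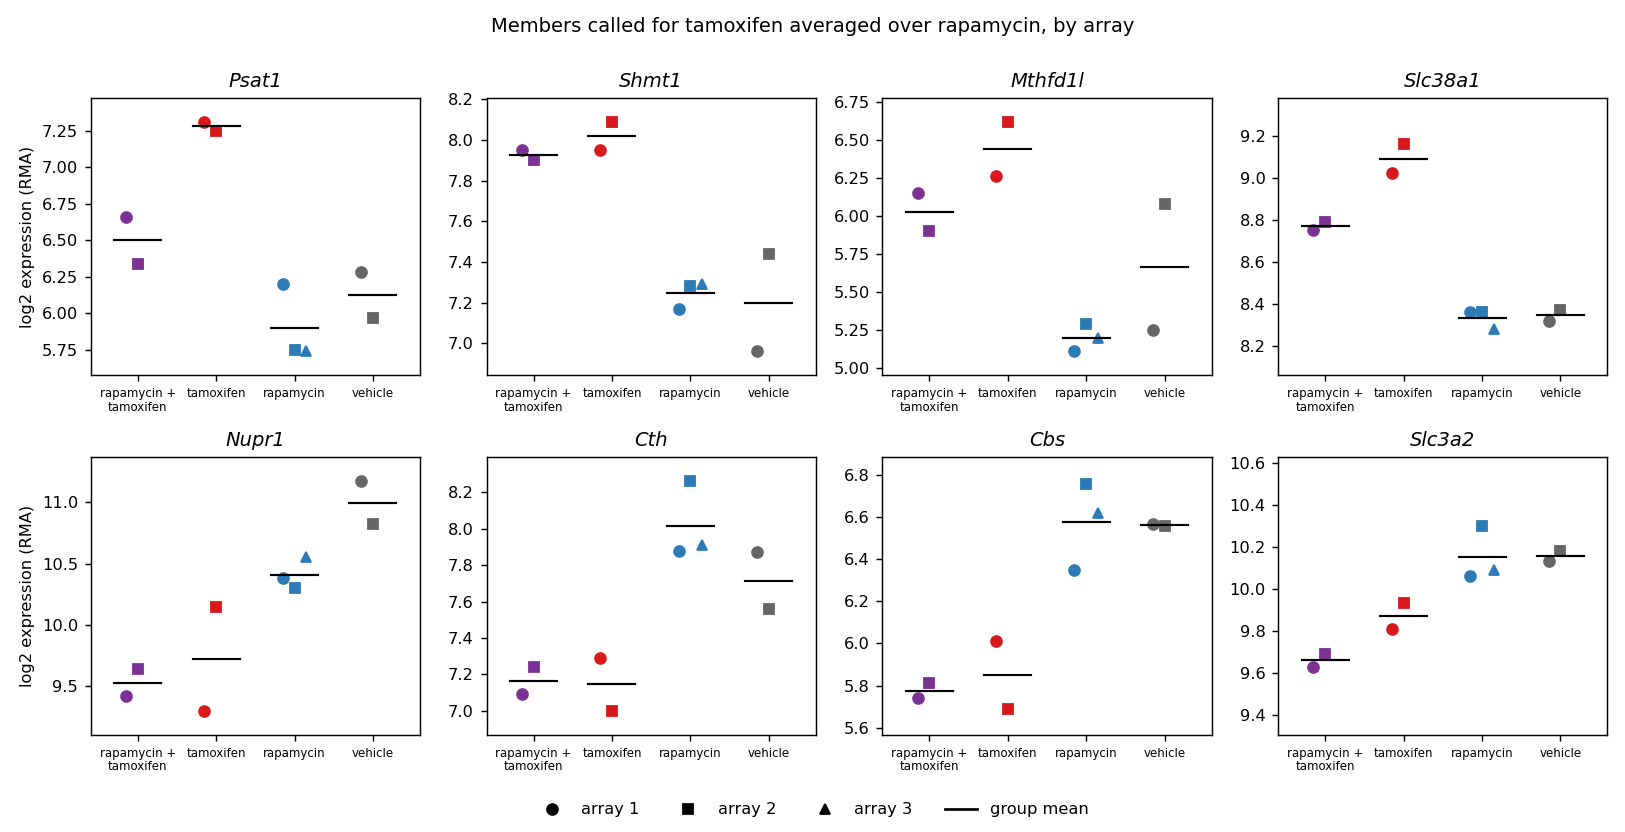
Log2 level of the 8 called members on each of the 9 whole-stomach arrays, with 1 panel for each gene, a point for each array and a bar at each group mean. Psat1, Shmt1 and Slc38a1 are higher on all tamoxifen-treated arrays than on the others, and Nupr1, Cth, Cbs and Slc3a2 are lower. Mthfd1l is higher on average, but vehicle array 2 (6.08) lies above rapamycin plus tamoxifen array 2 (5.90).

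Serine is built from a glycolytic intermediate by PHGDH, PSAT1 and PSPH, and the SHMT enzymes split it into glycine and a one-carbon unit carried by folate. Psat1, the aminotransferase of the pathway, had log2 levels of 6.66 and 6.34 with rapamycin plus tamoxifen, 7.31 and 7.25 with tamoxifen, 6.20, 5.75 and 5.74 with rapamycin, and 6.28 and 5.97 with vehicle. Every tamoxifen-treated array lay above every array without tamoxifen, and tamoxifen alone gave the highest levels. Psat1 rose by 0.88 ± 0.14 log2 units (SE) with tamoxifen averaged over rapamycin, a 1.84-fold change (adjusted p = 0.00649, limma). Against vehicle, tamoxifen alone raised Psat1 by 1.16 ± 0.20 (adjusted p = 0.0297), 1 of 2 members called in that comparison, in which 1.72% of all genes were called. This second call was kept only without rapamycin array 1 among the 9 fits that each left out 1 array, where the change ranged from 1.0 to 1.31 and the adjusted p reached 0.115.

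Shmt1, the cytosolic hydroxymethyltransferase, had levels of 7.95 and 7.90 with rapamycin plus tamoxifen, 7.95 and 8.09 with tamoxifen, 7.17, 7.28 and 7.29 with rapamycin, and 6.96 and 7.44 with vehicle. The 4 tamoxifen-treated arrays lay close together and above all 5 others. Its averaged change was 0.75 ± 0.12 (adjusted p = 0.00633, limma). The call for Shmt1, like that for Psat1, was kept in all 9 fits that left out 1 array.

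The other serine genes did not pass the test. Shmt2, the mitochondrial hydroxymethyltransferase, had an averaged difference of 0.29 ± 0.10 (adjusted p = 0.132) and Psph, the phosphatase of the last step, 0.32 ± 0.11 (adjusted p = 0.142). Shmt2 read 8.59 and 8.54 with rapamycin plus tamoxifen, 9.01 and 9.06 with tamoxifen, 8.38, 8.66 and 8.40 with rapamycin, and 8.52 and 8.55 with vehicle. The tamoxifen arrays of Shmt2 stood above the 7 others. Phgdh, the dehydrogenase of the first step, read 5.51 and 5.95 with rapamycin plus tamoxifen, 6.20 and 6.46 with tamoxifen, 6.07, 6.07 and 6.70 with rapamycin, and 6.31 and 6.07 with vehicle (averaged difference -0.21 ± 0.17, adjusted p = 0.619). Of the 3 steps that build serine, Psat1 was thus the 1 called, and differences between the steps were not tested.

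The folate genes pass one-carbon units from serine to purine and thymidylate synthesis. Mthfd1l, which releases formate from mitochondrial folate, had levels of 6.15 and 5.90 with rapamycin plus tamoxifen, 6.26 and 6.62 with tamoxifen, 5.11, 5.29 and 5.20 with rapamycin, and 5.25 and 6.08 with vehicle. Vehicle array 2 overlapped the tamoxifen-treated arrays, whereas the rapamycin arrays were all lower. The averaged change was 0.80 ± 0.17 (adjusted p = 0.0291). The call was kept without vehicle array 1, vehicle array 2 or tamoxifen array 1 and lost without each of the other 6 arrays, where the adjusted p reached 0.134 and the change lay between 0.71 and 0.87. The mitochondrial enzyme gene Mthfd2 and the cytosolic trifunctional enzyme gene Mthfd1 had averaged differences of -0.09 ± 0.16 and 0.18 ± 0.13, and neither was called.

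Transsulfuration makes cysteine from homocysteine in a pair of steps, the first by CBS and the second by CTH. Cth had levels of 7.09 and 7.24 with rapamycin plus tamoxifen, 7.29 and 7.0 with tamoxifen, 7.88, 8.26 and 7.91 with rapamycin, and 7.87 and 7.56 with vehicle. Cbs had levels of 5.74 and 5.81 with rapamycin plus tamoxifen, 6.01 and 5.69 with tamoxifen, 6.35, 6.76 and 6.62 with rapamycin, and 6.57 and 6.56 with vehicle. For both genes all 4 tamoxifen-treated arrays lay below all 5 others. Averaged over rapamycin, Cth fell by 0.71 ± 0.13 (adjusted p = 0.0131) and Cbs by 0.75 ± 0.12 (adjusted p = 0.00642). These were also the 2 members called between rapamycin plus tamoxifen and rapamycin alone, at -0.85 ± 0.17 for Cth (adjusted p = 0.0411) and -0.80 ± 0.16 for Cbs (adjusted p = 0.0372), where 2.45% of all genes were called. The averaged call for Cth was lost without rapamycin plus tamoxifen array 1 (adjusted p = 0.0744). Between rapamycin plus tamoxifen and rapamycin, both calls were lost without either combined array or without rapamycin array 2 or 3, and that for Cth also without rapamycin array 1, with adjusted p up to 0.347.

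Nupr1 encodes a small nuclear stress protein and was, of all measured members, the one with the largest averaged change. Its levels were 9.42 and 9.64 with rapamycin plus tamoxifen, 9.30 and 10.15 with tamoxifen, 10.38, 10.30 and 10.55 with rapamycin, and 11.17 and 10.82 with vehicle. The tamoxifen-treated arrays lay below the rapamycin arrays, which in turn lay below vehicle. Nupr1 fell by 1.08 ± 0.18 averaged over rapamycin (adjusted p = 0.00819), to 0.475 times the level without tamoxifen. It was the 1 member called between rapamycin plus tamoxifen and vehicle (-1.47 ± 0.26, adjusted p = 0.0388), where 1.15% of all genes were called. The averaged call was lost without rapamycin plus tamoxifen array 1 (adjusted p = 0.0501). The call against vehicle was kept without either tamoxifen array and lost without any of the 7 other arrays, where the adjusted p reached 0.308, and with the squamous marker mean in the model the change was -0.99 (adjusted p = 0.428).

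The remaining regulators were not called in any comparison. Atf4 itself read 8.35 and 8.5 with rapamycin plus tamoxifen, 8.46 and 9.15 with tamoxifen, 8.18, 8.43 and 8.41 with rapamycin, and 8.33 and 9.09 with vehicle. The groups overlapped, and array 2 was higher than array 1 in both the tamoxifen and the vehicle group. The averaged difference was 0.09 ± 0.19, with a 95% interval from -0.34 to 0.52. Ddit3, which encodes the pro-death factor CHOP, read 6.63 and 6.62 with rapamycin plus tamoxifen, 6.70 and 6.64 with tamoxifen, 6.67, 7.04 and 6.87 with rapamycin, and 6.55 and 6.62 with vehicle. All 9 arrays lay between 6.55 and 7.04, and the averaged difference was -0.07 ± 0.10 with an interval from -0.31 to 0.16. Cebpg, a dimer partner of ATF4, and Trib3, a pseudokinase that restrains ATF4, had averaged differences of 0.06 ± 0.17 and 0.10 ± 0.10.

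**Figure D2:**
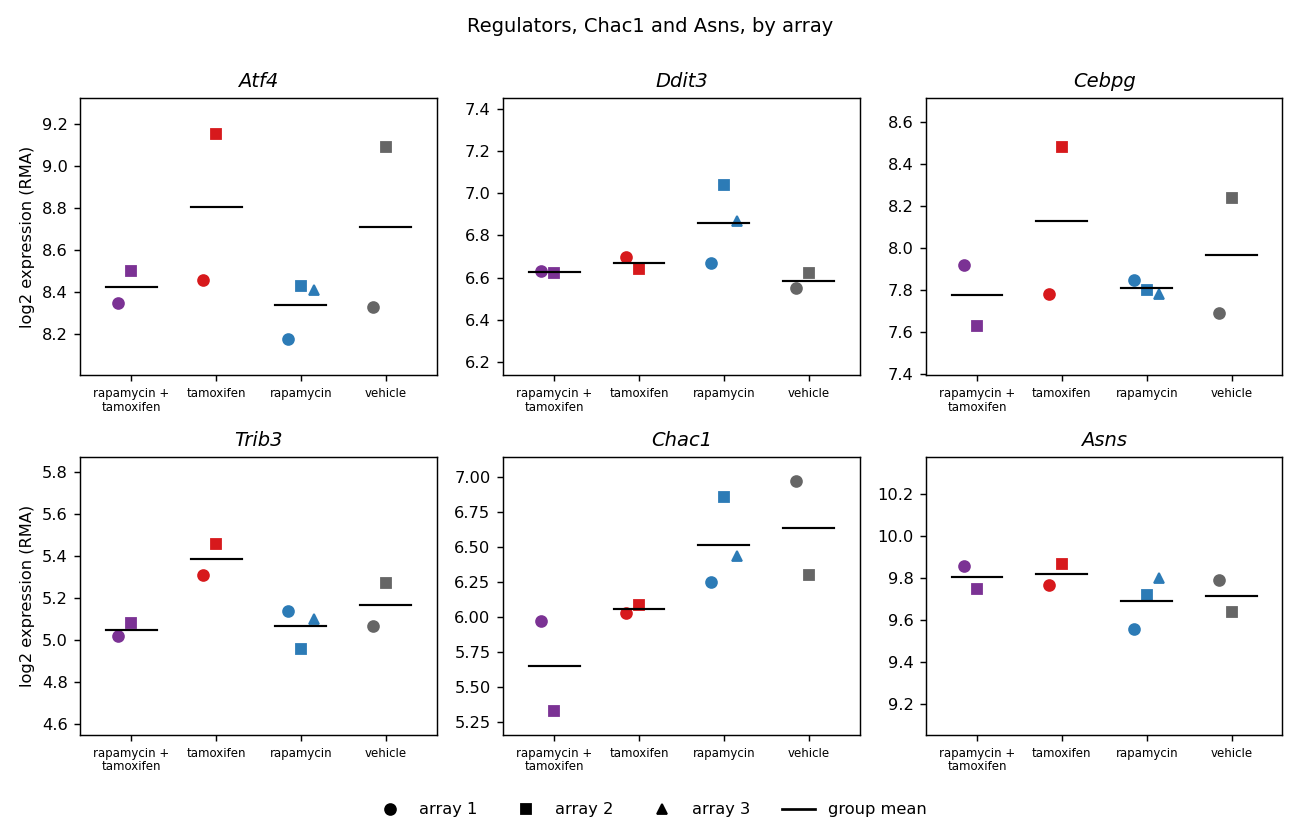
Log2 level of Atf4, Ddit3, Cebpg, Trib3, Chac1 and Asns on each of the 9 whole-stomach arrays, with a point for each array and a bar at each group mean. The groups of Atf4 overlap, with tamoxifen array 2 at 9.15 and vehicle array 2 at 9.09, and none of the 6 genes was called.

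Chac1 and Asns are targets whose messenger RNA usually rises when ATF4 is active. Chac1, which degrades glutathione, read 5.97 and 5.33 with rapamycin plus tamoxifen, 6.03 and 6.09 with tamoxifen, 6.25, 6.86 and 6.44 with rapamycin, and 6.97 and 6.30 with vehicle. All 4 tamoxifen-treated arrays were below the 5 others, with an averaged difference of -0.72 ± 0.20 that missed the threshold (adjusted p = 0.0739). Asns stayed between 9.56 and 9.87 on all 9 arrays, and its averaged difference was 0.11 ± 0.10 (adjusted p = 0.673). Aldh18a1, which begins proline synthesis from glutamate, had -0.22 ± 0.13. Vldlr, a lipoprotein receptor, and Stc2, a secreted glycoprotein, had -0.30 ± 0.13 and -0.22 ± 0.12, and neither was called. Of the 7 measured members with the element printed above, 1 was called (Nupr1), 4 had positive and 3 negative averaged differences, and these ran from -1.08 to 0.20. The windows of Psat1, Shmt1, Mthfd1l, Cbs and Slc3a2 held no match, and no window was available for Cth and Slc38a1.

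Among the 8 measured carriers, 1 rose and 1 fell. Slc38a1, a sodium-coupled carrier of glutamine and other small neutral amino acids, read 8.75 and 8.79 with rapamycin plus tamoxifen, 9.02 and 9.16 with tamoxifen, 8.36, 8.36 and 8.28 with rapamycin, and 8.32 and 8.37 with vehicle. The arrays fell into an ordered set with no overlap between tamoxifen, the combination and the groups without tamoxifen. Slc38a1 rose by 0.59 ± 0.09 on average (adjusted p = 0.00469, kept in all 9 fits that left out 1 array) and by 0.75 ± 0.13 against vehicle (adjusted p = 0.0274). The call against vehicle was lost without any 1 of the 9 arrays, at adjusted p from 0.0589 to 0.109.

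SLC3A2 pairs with SLC7A5 to exchange leucine and other large neutral amino acids, a route by which amino acids reach mTORC1. Slc3a2 read 9.63 and 9.69 with rapamycin plus tamoxifen, 9.81 and 9.93 with tamoxifen, 10.06, 10.30 and 10.09 with rapamycin, and 10.13 and 10.18 with vehicle. All tamoxifen-treated arrays were below all others, with a change of -0.39 ± 0.09 (adjusted p = 0.047). That call stood at the threshold: it was lost without any 1 of the 9 arrays (adjusted p from 0.0668 to 0.185), under quantile normalization (0.0502) and under median centring (0.0649). Slc7a5 read 8.61 and 8.46 with rapamycin plus tamoxifen, 9.01 and 8.93 with tamoxifen, 8.94, 9.28 and 9.33 with rapamycin, and 9.14 and 8.83 with vehicle. The combined arrays were the lowest, and the averaged difference was -0.33 ± 0.12 (adjusted p = 0.184).

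The 5 other carriers were not called. Slc1a5, a glutamine exchanger, had an averaged difference of 0.04 ± 0.13 on its brighter probe set, and Slc38a2, the inducible relative of Slc38a1, had -0.01 ± 0.09. Slc7a1 and Slc7a3, which carry cationic amino acids, had 0.13 ± 0.11 and -0.09 ± 0.12. Slc1a4, which carries alanine, serine and cysteine, read 7.48 on tamoxifen array 2 against 6.58 on tamoxifen array 1, and 6.99 on vehicle array 2 against 6.29 on vehicle array 1, a spread within groups that exceeded its averaged difference of 0.17 ± 0.20. Slc1a5 was the 1 member read by 2 probe sets with its symbol alone.

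The 5 tRNA synthetase members attach glycine, asparagine, serine, methionine and tryptophan to their transfer RNAs, and none was called. Wars, for tryptophan, had the largest averaged difference of the 5, at 0.39 ± 0.13 (adjusted p = 0.132). It read 9.48 and 9.61 with rapamycin plus tamoxifen, 9.54 and 10.02 with tamoxifen, 9.13, 9.03 and 8.98 with rapamycin, and 9.35 and 9.66 with vehicle. The rapamycin arrays were lowest, while tamoxifen and vehicle overlapped. Gars, Nars, Sars and Mars1 had averaged differences of 0.20, 0.12, -0.01 and -0.17.

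Rapamycin against vehicle called 0 of the 33 members, and 11 of all genes (0.0496%) by limma. At an unadjusted p under 0.05 there were 5 members (Nupr1, Aldh18a1, Slc1a5, Nars and Wars), that is 15.2% of the members against 8.91% of all genes. The median difference was -0.06 log2 units over the members and -0.02 over all genes. On the negative side were 23 of the 33 members (69.7%), against 53.2% of all genes. The 5 synthetase members, from -0.45 to -0.05, and the 3 folate genes were among them, while Cth (0.30) and Cbs (0.01) of transsulfuration were not. The folate differences rested on vehicle array 2: Mthfd1l had -0.46 ± 0.23, Mthfd2 -0.36 ± 0.21 and Mthfd1 -0.27 ± 0.18, against -0.05, -0.18 and -0.05 without that array. Among the synthetases Gars had -0.34, Sars -0.17 and Wars -0.45, against -0.14, -0.01 and -0.30 without it. Slc1a5 had a difference of 0.46 ± 0.17, with rapamycin at 9.14, 9.15 and 9.03 and vehicle at 8.88 and 8.41, and 0.23 without vehicle array 2. Its dimmer probe set did not show this rise, with rapamycin at 5.88, 5.86 and 5.84 and vehicle at 6.29 and 5.64. None of the members named here passed the limma test across all genes (adjusted p of 0.513 or more).

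Rapamycin plus tamoxifen against tamoxifen alone asks what rapamycin did in stomachs that also received tamoxifen. No member and no other gene passed the test (0 of 22180, 0%), also with limma's trend and robust options. Most members were nevertheless on the lower side: 27 of 33 had a negative difference (81.8%), against 54.0% of all genes. The median was -0.33 log2 units over the members and -0.02 over all genes. The lean was not particular to the members. Of the 107 measured genes of the surrounding pathways, 75 were negative, with a median of -0.14. Among them were all 13 other cytosolic synthetases and 11 of 12 further folate genes, whereas 13 of 18 other carriers were positive. In 40 of the 107 both combined arrays lay below both tamoxifen arrays. In 20 of 33 members (60.6%) both combined arrays lay below both tamoxifen arrays, against 20.3% of all genes, and in 1 member, Stc2, both lay above, as in 16.1% of all genes. The unadjusted p was under 0.05 for 12 members (36.4%), against 1257 of all genes (5.67%).

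Psat1 had a difference of -0.78 ± 0.20, and -0.81 without tamoxifen array 2. Slc1a4 had -0.79 ± 0.30, but -0.34 without that array. Aldh18a1 had -0.56 ± 0.20, and -0.25 without it. Phgdh had -0.60 ± 0.25, Nars -0.49 ± 0.13 and Shmt2 -0.47 ± 0.14, with -0.47, -0.44 and -0.45 without that array, and Phgdh had -0.38 without combined array 1. The adjusted p was 0.814 for each of these 6 genes. By role, all 5 serine and glycine genes, all 3 folate genes and all 5 synthetases were on the negative side, with medians of -0.47, -0.41 and -0.39. The transsulfuration genes, by contrast, had -0.07 for Cbs and 0.02 for Cth. Stc2 had 0.51 ± 0.17, with the combination at 7.04 and 7.04 and tamoxifen at 6.34 and 6.71.

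Single arrays moved the size of this pattern. The median over the members was -0.42 without tamoxifen array 1 and -0.23 without tamoxifen array 2, and it was -0.22 with the squamous marker mean in the model. With any 1 of the 4 arrays left out, 26 to 29 of the 33 members were negative. In 9 of the 33 members array 2 exceeded array 1 by at least 0.3 in both the tamoxifen and the vehicle group: Atf4, Cebpg, Mthfd1, Mthfd1l, Mthfd2, Slc1a4, Gars, Sars and Wars. The 2 combined arrays differed by that much in 3 members. Several marker means also set the combined arrays apart from the tamoxifen arrays. Lower in the combination were cell cycle genes (8.18 and 8.06 against 8.45 and 8.57) and smooth muscle (11.12 and 10.89 against 11.31 and 11.36). Macrophage markers were lower too (7.13 and 7.37 against 7.45 and 8.16). The means of endocrine markers (10.53 and 10.56 against 9.95 and 9.49) and chief-cell markers (10.25 and 10.01 against 9.60 and 9.83) were higher. The endocrine mean rested largely on Gast (9.73 and 9.08 against 6.48 and 6.0), with Ghrl also higher. Chga was lower (10.60 and 10.87 against 11.11 and 10.97), and Chgb and Sst overlapped. The other marker means overlapped. The part of these lists in the pattern was not tested.

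Whether tamoxifen acted differently in rapamycin-treated mice was asked with an interaction term. None of the members and no other gene passed it, and 1 member (Slc7a5) and 627 of all genes had an unadjusted p under 0.05. Slc7a5 had an interaction of -0.64 ± 0.24 (unadjusted p = 0.0275, adjusted p = 1). For Psat1 the term was -0.56 ± 0.28 and for Phgdh -0.69 ± 0.34. The median over the members was -0.20, against -0.01 over all genes. This term is the difference between the comparison of rapamycin plus tamoxifen with tamoxifen and that of rapamycin with vehicle. It rests on the same arrays, so it does not add a separate measurement.

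**Figure D3:**
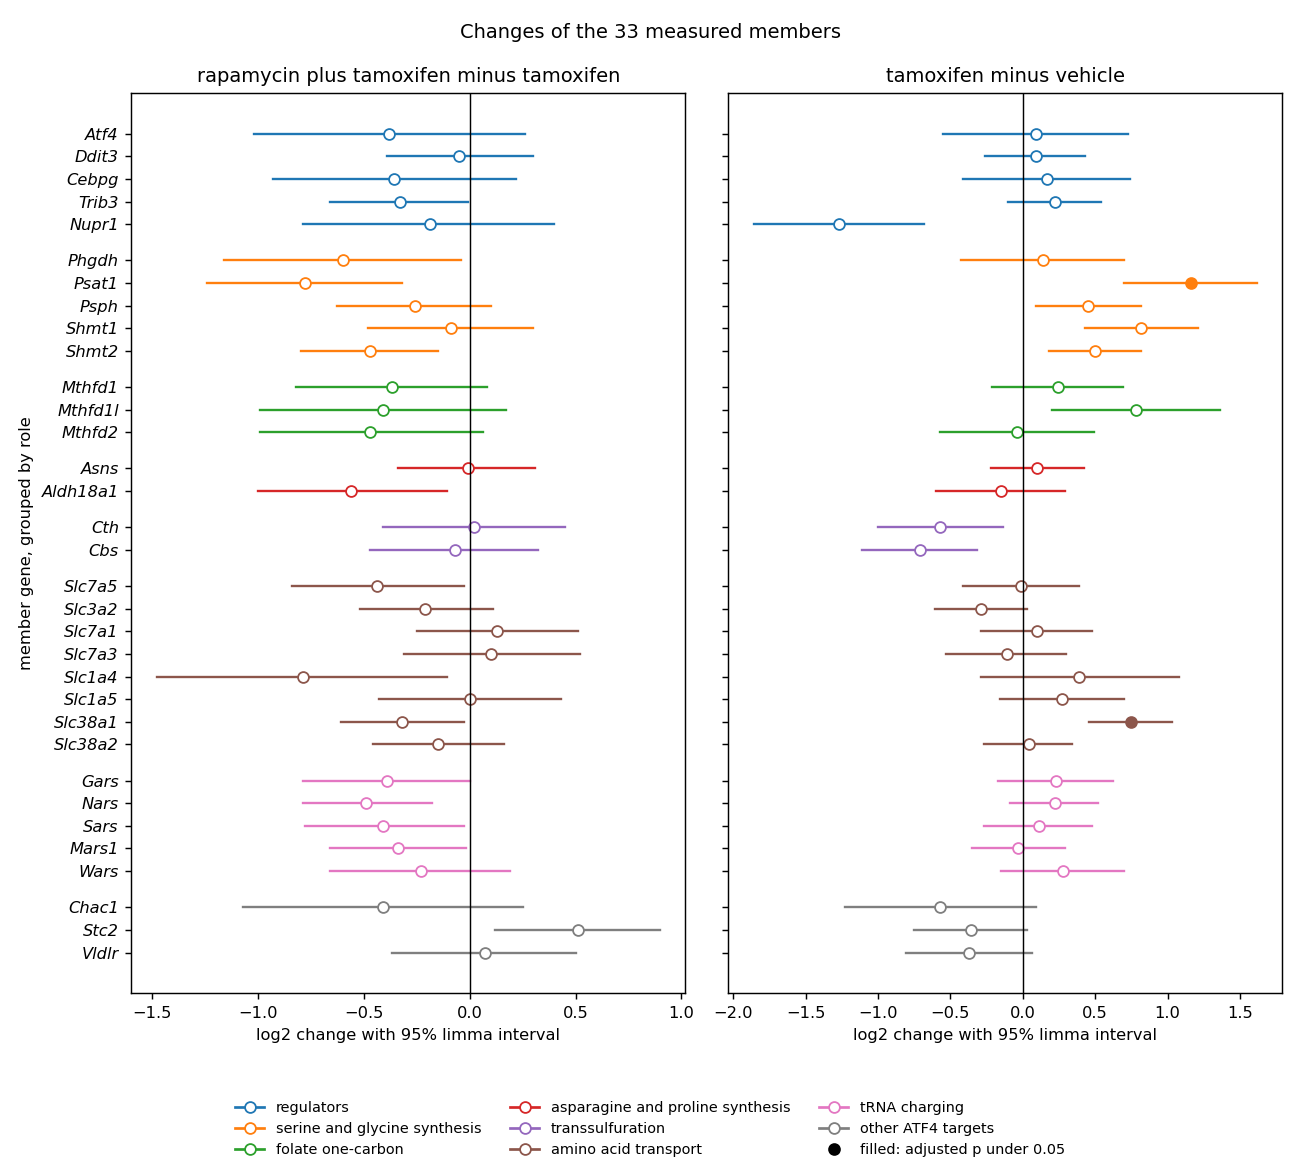
Log2 difference of each of the 33 measured members between rapamycin plus tamoxifen and tamoxifen (left) and between tamoxifen and vehicle (right), coloured by role, with bars for the 95% interval and filled points for called members. Differences between rapamycin plus tamoxifen and tamoxifen lie mostly below 0 (27 of 33), and those between tamoxifen and vehicle more often above it (21 of 33).

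The 2 fraction arrays, 1 each and with no test, compare isolated parietal cells with the other cells. The fractions were neither pure nor complete: 4 pit mucous markers averaged 10.64 in the parietal fraction and 12.60 in the other cells, and 4 smooth muscle markers 4.09 and 3.97, against 10.89 to 11.55 in whole stomach. Atf4, Ddit3 and Atf3 read higher in both fractions than on any whole-stomach array, for example 11.55 and 11.24 for Atf4 against at most 9.15, although the array medians were lower in the fractions. Other stress genes went the other way. Asns read 7.75 and 7.85 against at least 9.56, and Nupr1 7.06 and 5.70 against at least 9.30, and Trib3 and Herpud1 were also lower in both fractions. Whether the fractions were normalized with the other arrays is not given, so these levels may not be comparable. At a difference of at least 1 log2 unit, 5 members were higher in parietal cells than in the other cells and 1 was lower, where 6.32% of all genes were that much higher and 6.46% that much lower. Mthfd1 read 6.86 in parietal cells and 4.73 in the other cells, Shmt1 7.41 and 5.64, and Ddit3 9.80 and 8.19. Nupr1 read 7.06 in parietal cells and 5.70 in the other cells, and Slc1a4 5.46 and 4.42. Slc38a1 was the 1 member lower by that much on the probe sets used, at 5.26 in parietal cells and 6.44 in the other cells. The dimmer probe set of Slc1a5, which was not used, read 5.42 in parietal cells and 7.1 in the other cells. The median difference over the members was -0.11, and over all genes 0.03.

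The members called with tamoxifen were split by fraction. All 4 that fell with tamoxifen (Nupr1, Cth, Cbs and Slc3a2) were higher in parietal cells, by 0.33 to 1.36 log2 units, as were 485 of the 579 genes called lower in all (83.8%). Of the 4 that rose, Psat1, Mthfd1l and Slc38a1 were lower in parietal cells, by 0.73, 0.69 and 1.17, and Shmt1 was 1.78 higher. Some of these levels were low, against fraction array medians of 3.67 and 3.68. Psat1 read 3.66 in parietal cells and 4.39 in the other cells, Mthfd1l 3.82 and 4.51, and Cbs 4.54 and 4.21. Of the 719 genes called higher in all, 196 (27.3%) were on the parietal side. Shmt1 thus rose on tamoxifen-treated arrays on which the parietal marker mean was lower.

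**Figure D4:**
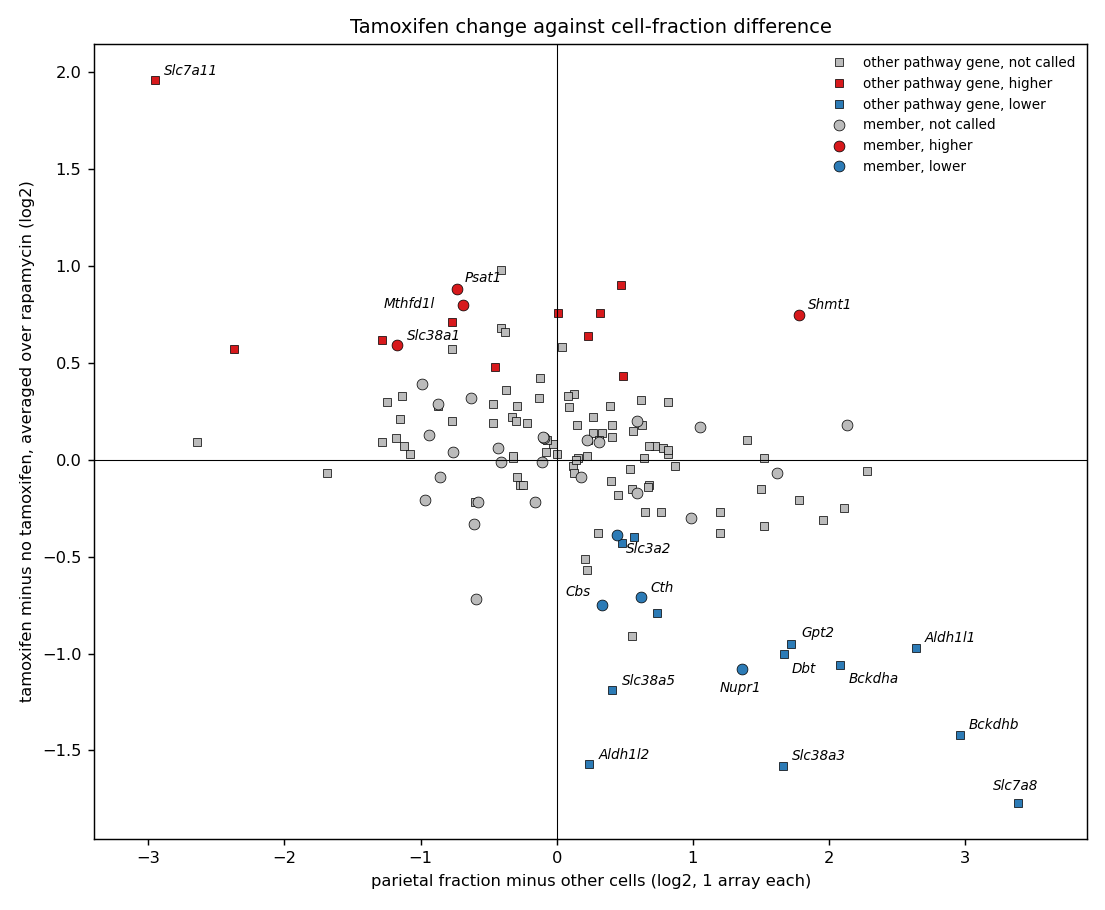
Log2 difference between parietal cells and the other cells on the horizontal axis (1 array each) and averaged change with tamoxifen on the vertical axis, for the members and the pathway genes, with most of those called named. Genes called lower with tamoxifen lie to the right of 0, and Slc7a11 lies at the upper left.

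The surrounding pathways were read on 107 genes outside the members, of the 119 listed. Tamoxifen averaged over rapamycin called 22 of them, 10 higher and 12 lower, where 5.85% of all genes were called (3.24% higher and 2.61% lower). The same all-gene shares apply to the counts of calls for each pathway list below. All 12 that fell were on the parietal side in the fractions, against 83.8% of all genes called lower. By at least 1 log2 unit it was 7 of the 12, against 54.4% of all genes called lower. The branched-chain ketoacid dehydrogenase breaks down leucine, isoleucine and valine, and its genes Bckdha and Bckdhb, for the decarboxylase subunits, and Dbt, for the transacylase core, all fell. Bckdha read 8.59 and 8.82 with rapamycin plus tamoxifen, 8.10 and 7.93 with tamoxifen, 9.40, 9.55 and 9.62 with rapamycin, and 9.43 and 9.22 with vehicle. Bckdhb read 7.22 and 7.49 with rapamycin plus tamoxifen, 7.31 and 7.76 with tamoxifen, 8.64, 8.91 and 8.77 with rapamycin, and 8.72 and 9.17 with vehicle. Tamoxifen-treated arrays lay below all others for both. The averaged changes were -1.06 ± 0.11 for Bckdha (adjusted p = 0.000832), -1.42 ± 0.14 for Bckdhb (adjusted p = 0.000869), -1.0 ± 0.10 for Dbt (adjusted p = 0.000843) and -0.79 ± 0.11 for Bcat2, the mitochondrial aminotransferase of the same route (adjusted p = 0.00382). In the fractions Bckdhb was 2.96 and Bckdha 2.08 log2 units higher in parietal cells.

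Of 13 genes of glutamine, glutamate and branched-chain metabolism, 5 fell and none rose. Of 18 other carriers, 3 fell and none rose. Slc7a8, an exchanger of neutral amino acids, read 9.25 and 9.78 with rapamycin plus tamoxifen, 9.52 and 9.17 with tamoxifen, 11.22, 11.49 and 11.26 with rapamycin, and 11.44 and 10.73 with vehicle. The gap between treated and untreated arrays exceeded the spread within either, and the change was -1.77 ± 0.18 (adjusted p = 0.000851). Slc38a3, which carries glutamine, fell by 1.58 ± 0.18 (adjusted p = 0.00158) and its relative Slc38a5 by 1.19 ± 0.22 (adjusted p = 0.0155, and 0.0746 and 0.063 without rapamycin plus tamoxifen array 1 or 2). Slc7a8 was 3.39 log2 units higher in parietal cells than in the other cells.

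Among 12 further folate genes, 2 fell and 2 rose. The formyl-tetrahydrofolate dehydrogenases, which oxidise one-carbon units to carbon dioxide, fell: Aldh1l2 of mitochondria by 1.57 ± 0.20 (adjusted p = 0.00249) and Aldh1l1 of the cytosol by 0.97 ± 0.12 (adjusted p = 0.00255). Tyms, thymidylate synthase, rose by 0.71 ± 0.12 (adjusted p = 0.00896) and Atic, of purine synthesis, by 0.62 ± 0.11 (adjusted p = 0.0118). Without rapamycin plus tamoxifen array 1 the adjusted p was 0.0574 for Tyms and 0.0702 for Atic. The cell cycle gene mean was higher on the same arrays, and its part in these changes was not tested.

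**Figure D5:**
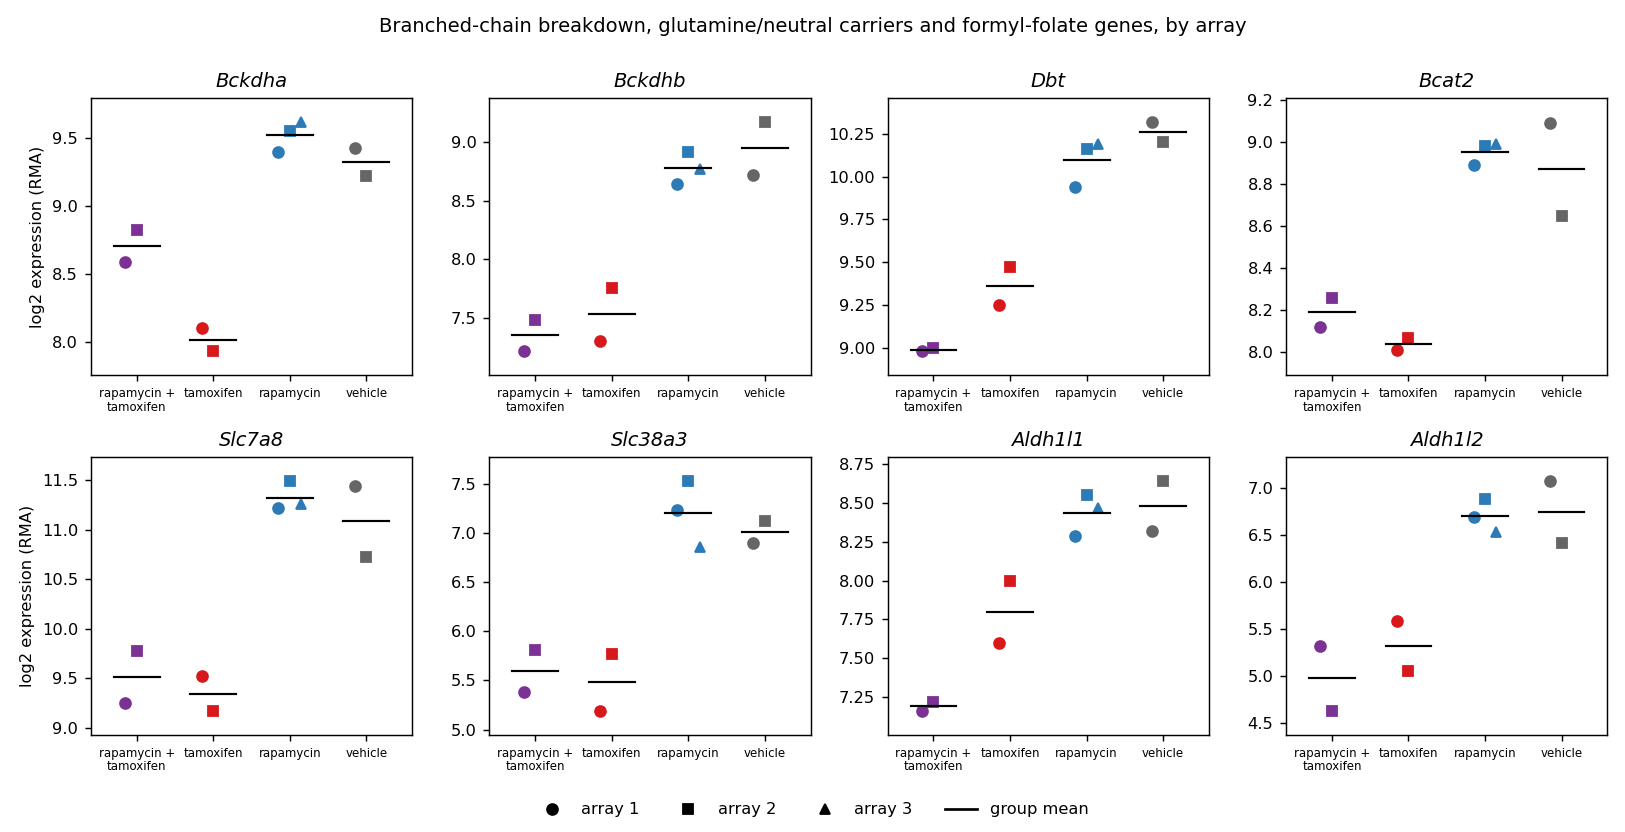
Log2 level of Bckdha, Bckdhb, Dbt, Bcat2, Slc7a8, Slc38a3, Aldh1l1 and Aldh1l2 on each of the 9 whole-stomach arrays, with a point for each array and a bar at each group mean. In every panel the 4 tamoxifen-treated arrays lie below the 5 others.

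The other stress response targets went both ways, with 2 of 14 higher and 2 lower. Slc7a11, the cystine importer, read 7.75 and 7.26 with rapamycin plus tamoxifen, 7.23 and 7.92 with tamoxifen, 5.91, 4.61 and 4.97 with rapamycin, and 5.48 and 6.49 with vehicle, a change of 1.96 ± 0.31 (adjusted p = 0.00714). Its treated arrays were all above the untreated ones, and it was 2.95 log2 units lower in parietal cells than in the other cells. Atf3, a stress transcription factor, rose by 0.90 ± 0.15 (adjusted p = 0.00751). Gpt2, the mitochondrial alanine aminotransferase, fell by 0.95 ± 0.12 (adjusted p = 0.00277), and Herpud1, of protein quality control in the endoplasmic reticulum, by 0.43 ± 0.09 (adjusted p = 0.0237). Herpud1 lost its call without vehicle array 1, tamoxifen array 1, rapamycin array 2 or 3 or either combined array (adjusted p up to 0.113). So cysteine supply genes differed in direction, with the importer gene Slc7a11 higher and the synthesis genes Cth and Cbs lower.

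Of 10 methionine and glutathione genes, 3 rose and none fell: Gclc, the catalytic subunit of glutamate-cysteine ligase, by 0.76 ± 0.13, Ahcy, which splits adenosylhomocysteine, by 0.57 ± 0.12, and Srm, spermidine synthase, by 0.48 ± 0.09 (adjusted p of 0.0108, 0.0277 and 0.0137). Vars and Rars, for valine and arginine, rose by 0.76 ± 0.09 (adjusted p = 0.00186) and 0.43 ± 0.10 (adjusted p = 0.0468) among 13 other cytosolic synthetases. Yars2, for tyrosine, rose by 0.64 ± 0.11 (adjusted p = 0.00987) among 16 mitochondrial ones. Several of these calls rested on single arrays. Without rapamycin plus tamoxifen array 1 the adjusted p was 0.0644 for Gclc and 0.0776 for Srm, and without array 2 it was 0.0617 for Srm and 0.0586 for Yars2. Ahcy kept its call only without vehicle array 1 or rapamycin array 3, and Rars only without vehicle array 2, with adjusted p up to 0.136 and 0.198. Both calls were also lost with the squamous marker mean in the model, and that for Ahcy when its 2 probe sets were averaged. None of 11 genes around eIF2 alpha was called: its kinases, subunits of its phosphatase, and Eif2b1 to Eif2b5 of the eIF2B complex. Rapamycin against vehicle, and rapamycin plus tamoxifen against tamoxifen, called 0 of the 107 by limma. At an unadjusted p under 0.05 there were 8 and 19 of the 107, against 8.91% and 5.67% of all genes.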

How the data were processed

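RNA of 11 mouse stomach samples was measured on Affymetrix gene arrays. The deposited table holds log2 values, which the authors made with RMA in Partek, per the submitters' processing notes. Its versions and settings, and whether the fraction arrays were normalized with the others, are not given in the sources used. Array medians were 4.95 to 5.09 in whole stomach and 3.67 and 3.68 in the fractions, so no fold change was taken between them. Of 41345 probe sets, 23521 had 1 gene symbol in the platform annotation, 1814 had several and 16010 were not listed, and 23328 were matched to RefSeq. The number of arrays limits the precision.

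The 9 whole-stomach arrays entered 1 limma model (version 3.58.1 in R 4.3.3) with a mean for each group and 5 residual degrees of freedom. Each gene was read on the probe set with the highest mean, and p-values were adjusted over 22180 genes. In data simulated with 200 changed genes, the fit recovered 54.5% of 1-unit and 98% of 2-unit log2 changes between tamoxifen and vehicle, and 53% and 99% between rapamycin plus tamoxifen and tamoxifen. Intervals are 95%. The fractions have 1 array each and no test.

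The members and pathway lists were chosen with earlier results of these data known. Values on every array are given for called members. Where a role had no called member, the 2 with the smallest p were named, and up to 4 called genes were named from each pathway list. Alternatives were quantile normalization, median centring, genes above the median level, averaging the probe sets of a gene, limma's trend and robust options, the replicate number as a block, squamous marker mean as a covariate, fits of the compared groups alone and leaving out arrays. Same-numbered arrays had residual correlations of 0.56 between tamoxifen and vehicle and -0.11 to 0.41 elsewhere, and the labels tie no numbers together. Promoter windows were searched in Python 3.11.15.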

Additional observations from a re-analysis of the deposited data

Results flagged for a closer look

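Ddit3 was flagged because its arrays were ordered in opposite directions in a pair of matched contrasts. The gaps were small, for example 6.63 against 6.64 between the nearest combined and tamoxifen arrays. How many of all genes show such an order was not counted, and the opposition was tested only by the interaction term. Both combined arrays (6.63 and 6.62) lay below all rapamycin arrays (6.67, 7.04 and 6.87), whereas both tamoxifen arrays (6.70 and 6.64) lay above both vehicle arrays (6.55 and 6.62). Likewise both combined arrays lay below both tamoxifen arrays, whereas all rapamycin arrays lay above both vehicle arrays. The interaction was -0.32 ± 0.20 log2 units (unadjusted p = 0.154, adjusted p = 1, limma), so the difference did not pass the test.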

How the results depend on the processing

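No call of a named gene changed sign under any alternative run. With other settings 54 such values, and with 1 array left out 88, kept their direction and missed the threshold. The count of called members moved by more than 1.5 times as follows, at the same threshold. Between tamoxifen and vehicle (2 as reported), 5 were called among genes above the median level, 4 with limma's trend and robust options, and 0 with the squamous marker mean as covariate or in a fit of those groups alone. Between rapamycin plus tamoxifen and vehicle (1 as reported), 3 were called among genes above the median level and 0 with the covariate. Between rapamycin plus tamoxifen and rapamycin (2 as reported), 6 were called among genes above the median level, 1 with the covariate and 5 in a fit of those groups alone. With the replicate number as a block, 1 member was called between tamoxifen and vehicle, 0 between rapamycin plus tamoxifen and vehicle, and 0 between rapamycin plus tamoxifen and rapamycin. For tamoxifen averaged over rapamycin the block gave 6 (8 as reported), a move of less than 1.5 times. A further pair of settings was chosen after seeing the data. With vehicle 2 and tamoxifen 2 left out, those comparisons called 1, 2 and 5 members. With tamoxifen 1, rapamycin 1 and rapamycin 2 left out, tamoxifen against vehicle and rapamycin plus tamoxifen against rapamycin called 0 each and the averaged effect 2. Where a setting leaves a group with 1 array, that array is assumed to vary like the other groups. Leaving out 1 array at a time gave 0 to 1 members for tamoxifen against vehicle, 0 to 1 for rapamycin plus tamoxifen against vehicle, 0 to 4 for rapamycin plus tamoxifen against rapamycin and 4 to 8 for the averaged effect. The count was 0 in every setting run for rapamycin against vehicle, rapamycin plus tamoxifen against tamoxifen and the interaction. The cause of these moves was not tested.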
